A study of Mus musculus with 2 samples.

Results

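Visceral adipose tissue (VAT) holds, between its adipocytes and vessels, a mesenchymal stroma that builds the extracellular matrix and from which new adipocytes arise. Within it, cells with Dpp4 and Pi16 are known as interstitial progenitors and cells with Icam1, Fabp4 and Lpl as preadipocytes. The surface of VAT is covered by mesothelium, and its vessels by smooth muscle cells and pericytes. Stromal cells of VAT are also known as a source of IL-33, the cytokine bound by the ST2 receptor of VAT Treg cells. None of these cells carries CD45, the surface phosphatase of hematopoietic cells that is encoded by Ptprc.

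The cells described here are the fibroblasts that were captured although CD45+ cells had been selected. They were chosen from unique molecular identifier (UMI) counts, in which each UMI stands for 1 captured mRNA molecule. After cells with fewer than 500 UMIs, fewer than 200 genes or more than 25% mitochondrial UMIs had been left out, a cell was taken when Col1a1, Col3a1 and Dcn together had at least 20 UMIs, C1qa, C1qb and C1qc together had fewer than 10, and Cdh5 had 0. This gave 98 of 25198 cells, of which 87 were among 12724 ABX cells and 11 among 12474 NW cells.

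The study asked how the gut microbiota shapes the immune cells of VAT. Both libraries came from wildtype C57BL/6 mice of 15 weeks, kept specific pathogen-free, whose drinking water was plain (normal water, NW) or held antibiotics (ABX, a cocktail that the study's methods describe as ampicillin, vancomycin, streptomycin and colistin). Epididymal VAT was digested with enzymes, CD45+ cells were taken with magnetic beads, and the cells were stained with oligonucleotide-tagged antibodies (AbSeq) and captured in microwells. There was 1 library per condition, and how many mice went into each is not given in the sources used here, so no value below tests one condition against the other, and every interval covers counting error only.

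The other cells of the 2 libraries had median depths of 5089 UMIs in NW and 3826 in ABX, and 371 cell barcodes occurred in both libraries, among them that of 1 ABX fibroblast. The fibroblasts were deeper. The 87 ABX cells had 2073 to 16630 UMIs (median 9150) and 757129 UMIs in all, and the 11 NW cells had 4377 to 16876 (median 10896) and 120329 in all. Mitochondrial genes gave a median of 5.01% of the UMIs of ABX fibroblasts, against 7.07% in other ABX cells.

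The values that chose the cells are given here as a description. Just inside the limit, the lowest sums of Col1a1, Col3a1 and Dcn were 20, 27 and 28 UMIs in ABX and 65, 66 and 84 in NW. Just outside it, among cells that met the other limits, the highest sums were 17, 16 and 15 in ABX and 7, 7 and 6 in NW. A further 14 ABX and 7 NW cells had at least 20 UMIs of these genes but were left out, 11 and 6 of them for the C1q genes and 3 and 1 for Cdh5. On GRCm38, Col1a1 (ENSMUSG00000001506.10) lies on chromosome 11 from 94936224 to 94953042, Col3a1 (ENSMUSG00000026043.18) on chromosome 1 from 45311538 to 45349706, and Dcn (ENSMUSG00000019929.16) on chromosome 10 from 97479609 to 97518143, all on the plus strand.

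The label held for most ABX cells and for a minority of the NW cells. Pdgfra, the receptor that marks adipose mesenchymal cells, and Lum, a collagen-binding proteoglycan, are fibroblast markers that the rule did not read. In ABX, Pdgfra had a UMI in 80 of 87 cells (0 to 29 UMIs, median 7) and Lum in 66 (0 to 34, median 4). Of the 11 NW cells, Pdgfra had a UMI in 6 and Lum in 4.

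A group of 9 ABX and 6 NW cells carried the genes of mesothelium. They were set apart by 8 or more UMIs over Msln, Upk3b, Upk1b, Lrrn4, Nkain4 and Muc16, a limit chosen after the values had been seen. In ABX these 9 cells had 17 to 73 such UMIs, and every other fibroblast had 6 or fewer. In NW the lowest of the 6 cells had 8, and the other 5 fibroblasts had 0. Upk3b, an uroplakin of mesothelial cells, had 10 to 28 UMIs (median 15) in the ABX cells and 2 to 75 (median 21) in the NW cells. It had 0 in all 73 remaining ABX fibroblasts without smooth muscle genes. Lum had 0 in all 9, and Pdgfra had 1 UMI at most.

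A smaller group carried the genes of contractile cells. In 5 ABX cells and 1 NW cell, Acta2, Tagln, Myh11, Cnn1 and Actg2 together had at least 40 UMIs, a limit also chosen after the values had been seen. The ABX cells had 46 to 146 such UMIs, the NW cell had 139, and none of the remaining ABX cells outside the mesothelial-like group had more than 8. Myh11, the heavy chain of smooth muscle myosin, had 9 to 32 UMIs (median 12) in the 5 ABX cells and 0 in the other 82. In 1 of these cells, the mural cell genes Rgs5 and Notch3 also had 42 and 24 UMIs, and Rgs5 had 0 in every other fibroblast of either library.

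What remained were 73 ABX and 4 NW cells, called Pdgfra+ fibroblasts from here on. The name does not mean that only they had Pdgfra, which most smooth muscle-like cells also carried. Every one of the 73 had a Pdgfra UMI (1 to 29, median 8), and 66 of them also had Lum. The 4 NW cells had 32, 16, 5 and 2 Pdgfra UMIs and 20, 6, 8 and 3 Lum UMIs. Values given for all 11 NW cells therefore mix these 4 with 6 mesothelial-like cells and 1 smooth muscle-like cell. Of their 120329 UMIs, 58787 lay in the mesothelial-like and 44666 in the Pdgfra+ cells.

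**Figure D1:**
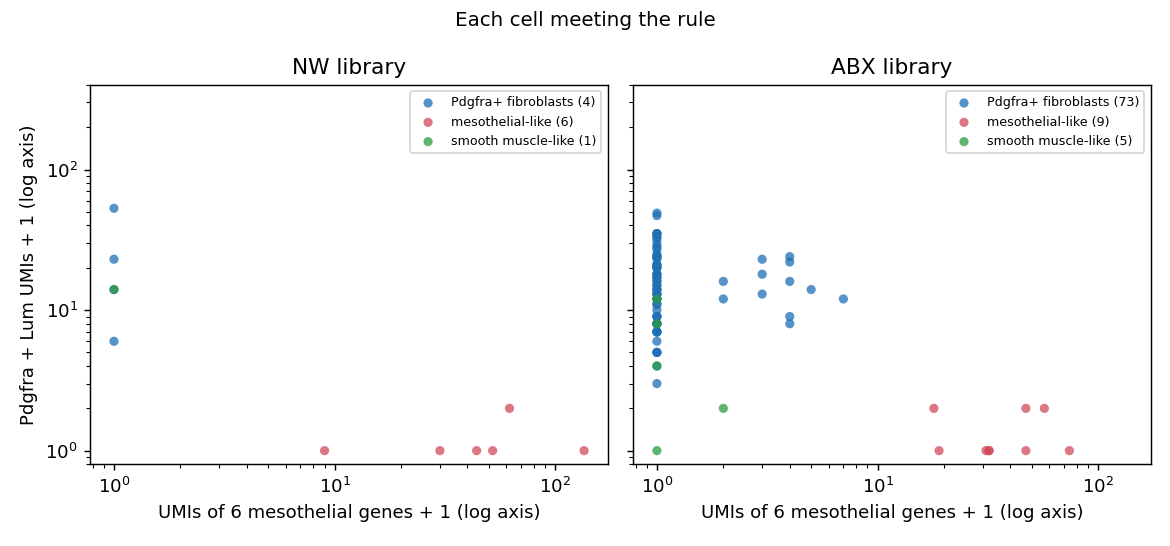
UMIs of Msln, Upk3b, Upk1b, Lrrn4, Nkain4 and Muc16 together (x axis, 1 added, log scale) against UMIs of Pdgfra and Lum together (y axis, 1 added, log scale) for each cell that met the rule, in NW (left) and ABX (right). Colours mark the 3 groups. The mesothelial-like cells sit at the lower right, with at most 1 Pdgfra UMI, and most cells of the ABX panel have Pdgfra or Lum and no mesothelial UMI.

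Cells that met the rule made up 0.684% of ABX cells (Clopper-Pearson 95% interval 0.548% to 0.843%) and 0.0882% of NW cells (0.0440% to 0.158%), a log10 ratio of 0.89 (0.62 to 1.16, counting interval by a normal approximation on the log scale). The same values are given for the groups within them, whose limits were chosen after the values had been seen. Pdgfra+ fibroblasts were 0.574% of ABX cells (0.45% to 0.721%) and 0.0321% of NW cells (0.00874% to 0.0821%), a log10 ratio of 1.25 (0.82 to 1.69). For mesothelial-like cells the shares were 0.0707% and 0.0481%, a log10 ratio of 0.17 (-0.28 to 0.62). These intervals cover counting error and test no difference between the libraries or between the groups. Endothelial cells, taken as cells with at least 2 Cdh5 UMIs, fewer than 20 of the collagen and Dcn UMIs and fewer than 10 of the C1q UMIs, were 0.872% of ABX cells (111 cells) and 0.369% of NW cells (46 cells), a log10 ratio of 0.37 (0.23 to 0.52). With 1 library each, the treatment, the mice, the digestion and the bead selection cannot be told apart in these ratios.

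Dcn, Col1a1 and Col3a1 mRNA outside the fibroblasts was higher in ABX than in NW, to a degree that differed by gene. Dcn, a proteoglycan that binds collagen fibrils, had 19497 UMIs in all ABX barcodes, 75.9% of them in the 87 fibroblasts, and 2426 in all NW barcodes, 45.3% of them in the 11. Levels are given as CPM, the UMIs of a gene summed over a group of cells and scaled to the same total of all genes. B cells, taken as cells with at least 5 UMIs of Ms4a1 and Cd79a and fewer than 10 of the C1q genes, are not known to make Dcn. They had Dcn at 12.1 CPM in ABX (a UMI in 7.0% of 1115 cells, median depth 4967) and 1.83 in NW (in 1.28% of 470 cells, median depth 5587). Macrophages, taken as cells with at least 10 C1q UMIs, had 115 CPM in ABX and 21.4 in NW. They include the 11 ABX and 6 NW cells that met the matrix limit but were left out for the C1q genes. Single macrophages had up to 250 Dcn UMIs in ABX and 114 in NW. The mesothelial gene Upk3b did not follow Dcn, with 156 UMIs in the fibroblasts of each library. Other filtered cells held 30 Upk3b UMIs in ABX and 132 in NW, where 1 macrophage had 74. B cells of either library had 0. With 190 Upk3b UMIs in all ABX barcodes and 295 in all NW barcodes, the gene was too rare to compare B cells. Dcn UMIs outside fibroblasts can come from free RNA or from cells captured together, and the part of each was not tested.

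Hematopoietic mRNA was low in most of the cells. Over 10 pan-hematopoietic genes (Ptprc, Coro1a, Laptm5, Cd52, Cd53, Tyrobp, Fcer1g, Srgn, Rac2 and Lcp1), ABX fibroblasts had a median of 2 UMIs and other ABX cells a median of 31. In 3 ABX fibroblasts the sum was 10 or more, at 101, 49 and 10, and in the other 84 it was below 10. In NW it was 10 or more in 2 of 11 cells, at 29 and 31, both of them mesothelial-like. Ptprc itself had a UMI in 10 of 87 ABX fibroblasts (11.5%, 5.65% to 20.1%), against 75.9% of other ABX cells at a lower median depth and 21.6% of ABX endothelial cells (median depth 5016). After thinning each cell to 1000 UMIs, the expected shares were 2.32% of fibroblasts, 5.08% of endothelial cells and 44.1% of other cells. In NW, 3 of 11 cells had a Ptprc UMI, and none of them was among the 4 Pdgfra+ cells. Of the 26 Ptprc UMIs in ABX fibroblasts, 11 lay in the cell with 101 hematopoietic UMIs, and 7 lay in the 84 cells with fewer than 10.

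The antibodies were a readout that the rule did not use. CD44, an adhesion receptor of leukocytes, had 0 to 265 antibody UMIs (median 5) on ABX fibroblasts, 1 to 1601 (median 57) on ABX endothelial cells and a median of 86 on all other ABX cells. Of the 87 ABX fibroblasts, 13 reached that median of 86. Its mRNA, Cd44, had a UMI in 17 of the 87 cells. The other 9 antibodies, which are directed at lymphocyte antigens or CD1d, had medians between 1 (CD4) and 15 (NK-1.1) on fibroblasts and between 1 and 22 on all other cells. Endothelial cells had far higher medians for several of them, such as 279 for TCR-beta, where fibroblasts had 13, and 139 for CD8b, where fibroblasts had 6. Over all 10 antibodies together, the medians were 66 UMIs on fibroblasts, 877 on endothelial cells and 209 on all other cells. On the 11 NW cells the median for CD44 was 21 (1 to 183), against 101 on other NW cells.

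**Figure D2:**
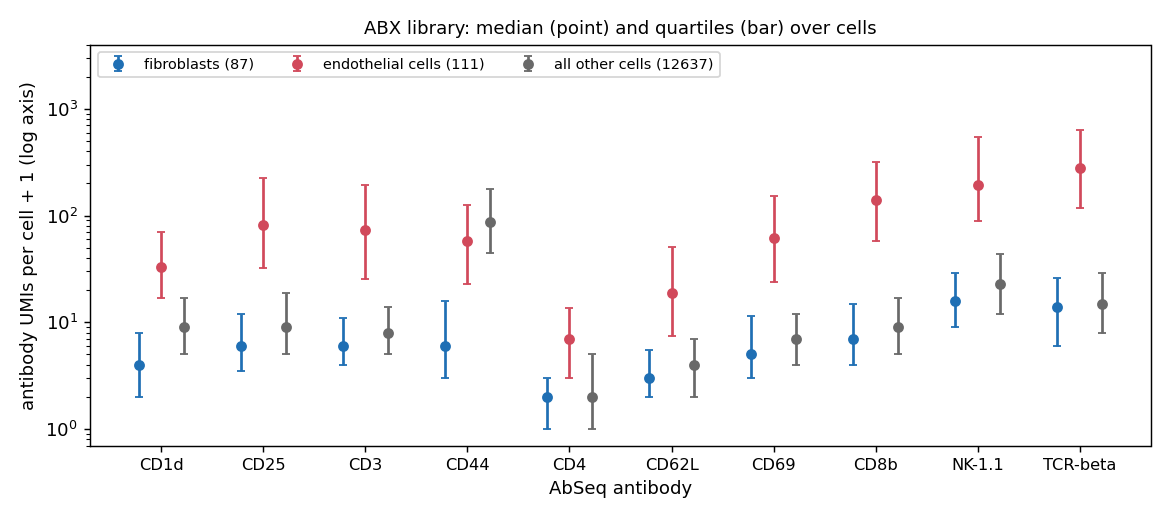
Antibody UMIs per cell (y axis, 1 added, log scale) for the 10 AbSeq antibodies in ABX fibroblasts, endothelial cells and all other cells. Points are medians and bars run from the lower to the upper quartile over cells. CD44 is low on fibroblasts (median 5) and high on other cells (median 86), and endothelial cells stand above both other groups for every antibody but CD44.

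The genes of the ABX fibroblasts were set against those of the 12637 other ABX cells, endothelial cells included, in CPM. Because the cells were chosen by their genes, these folds describe the cells and were not tested. Of 25447 genes listed, 1028 (4.04%) were at least 4-fold higher in the fibroblasts with 20 or more UMIs there, and 782 (3.07%) were at least 4-fold lower where at least 20 UMIs would lie in the fibroblasts at the level of the other cells. Against the 111 ABX endothelial cells, 757 genes (2.97%) were at least 4-fold higher by the same limits and 628 (2.47%) lower.

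Among the genes that had 200 or more UMIs in the ABX fibroblasts and were seen in 30% or more of them, the largest fold over other cells was that of Vldlr, the very low density lipoprotein receptor, at 365 against 0.80 CPM (456-fold, 334 to 633). It had 0 to 16 UMIs (median 2) and was found in 62 of the 87 cells. Scn7a, an atypical sodium channel, followed with 432-fold (342 to 552, in 70 cells) and Sult1e1, the estrogen sulfotransferase, with 427-fold (317 to 585, in 47 cells). The next 27 genes by fold ran from Fndc1 (404-fold) to Lox (256-fold). Secreted matrix proteins and their modifiers were among them, such as Pcolce2, Tnxb, Efemp1, Mfap5, Aebp1, Ogn, Lama2, Adamts2, Svep1 and Fbln1. Of the 5 markers given for these cells, the rule did not read Lum, at 322-fold (267 to 392), and Pdgfra, at 250-fold (214 to 294). The other markers are the genes of the rule, so their folds of 302 (Col1a1), 282 (Dcn) and 244 (Col3a1) restate it.

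Several of the leading genes do not encode matrix. Scara5, a ferritin receptor, was 367-fold higher (289 to 472), and Fst, the activin antagonist follistatin, 319-fold (243 to 426). Vegfd, a lymphatic growth factor, was 307-fold higher (245 to 386) and Cyp1b1, a cytochrome that metabolizes steroids, 258-fold (223 to 300). Ms4a4d, a membrane protein, was 355-fold higher (292 to 434). In the NW cells the same genes had lower counts behind them, with 10 UMIs of Vldlr in 5 of 11 cells, 25 of Scn7a in 5, 19 of Scara5 in 5 and 26 of Vegfd in 7.

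Set against endothelial cells, the largest folds under the same limits were those of Ogn, the proteoglycan osteoglycin, with 1652 UMIs in fibroblasts and 1 in endothelial cells, and Inmt, an amine methyltransferase, with 1879 against 2. Dcn followed with 14801 against 16, a gene that was read to choose both groups. Clec3b, the plasminogen-binding protein tetranectin, had 1636 UMIs in fibroblasts and 0 in endothelial cells. With the endothelial group set to 3 UMIs this is 565-fold higher, and the exact lower limit was 459-fold. Hsd11b1, which makes active glucocorticoid, had 345 UMIs against 1.

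The matrix genes were described by lists. All 6 fibrillar collagen genes were at least 4-fold higher in ABX fibroblasts than in other ABX cells, with a median log2 ratio of 7.23 (1 CPM added), against -0.07 over all genes listed. Of these, Col1a1 and Col3a1 belong to the rule that chose the cells. Col1a2 had 5 to 296 UMIs (median 33) in ABX fibroblasts and was found in all 87. It stood at 5270 CPM, against 20.3 in other ABX cells and 95.7 in endothelial cells. Col5a3 was the least raised of the list, at 51.5-fold, with a UMI in 25 cells. All 14 network collagen and laminin genes were at least 4-fold higher too (median log2 ratio 5.49), but only 8 of the 14 were so against endothelial cells. Col4a1, a basement membrane collagen, had 1469 UMIs in ABX fibroblasts and 1570 in endothelial cells, a ratio of 0.969. Nid1, which joins laminin to collagen IV, was 92.5-fold higher than in other cells and 5.54-fold higher than in endothelial cells.

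All 8 leucine-rich proteoglycan genes, of which Dcn belongs to the rule, were at least 4-fold higher than in other cells (median log2 ratio 6.94), and 6 of the 8 were so against endothelial cells (median log2 ratio 6.82). Bgn, which binds collagen and TGF-beta, was 78.5-fold higher than in other cells and 3.54-fold higher than in endothelial cells, and Aspn was not higher than in endothelial cells (53 against 67 UMIs). Of 12 elastic fibre genes, all were at least 4-fold higher than in other cells (median log2 ratio 6.45). Eln, the elastin gene, had 190 UMIs in fibroblasts and 1363 in endothelial cells, and was the only gene of this list at least 4-fold lower than in endothelial cells.

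Of 12 genes for collagen processing and crosslinking, 9 were at least 4-fold higher than in other cells (median log2 ratio 5.88), led by Pcolce2 (379-fold), Adamts2 (278-fold), Lox (256-fold) and Loxl1 (251-fold). The lysyl hydroxylase gene Plod1 was at the level of other cells (1.01-fold, 0.781 to 1.29). Of 12 matrix proteases and inhibitors, 11 were at least 4-fold higher (median log2 ratio 4.02). Adamts5, an aggrecanase, had 0 to 68 UMIs (median 14) in 76 cells and was 253-fold higher, and Mmp2, a gelatinase, was 178-fold higher. Timp2 had a UMI in 86 of 87 cells and 6263 CPM, against 509 in other cells. Timp4 had 0 UMIs in ABX fibroblasts and 676 in endothelial cells. Mmp3 was a gene of single cells, with 20 of its 23 ABX UMIs in 1 cell and all 37 NW UMIs in 1 cell.

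**Figure D3:**
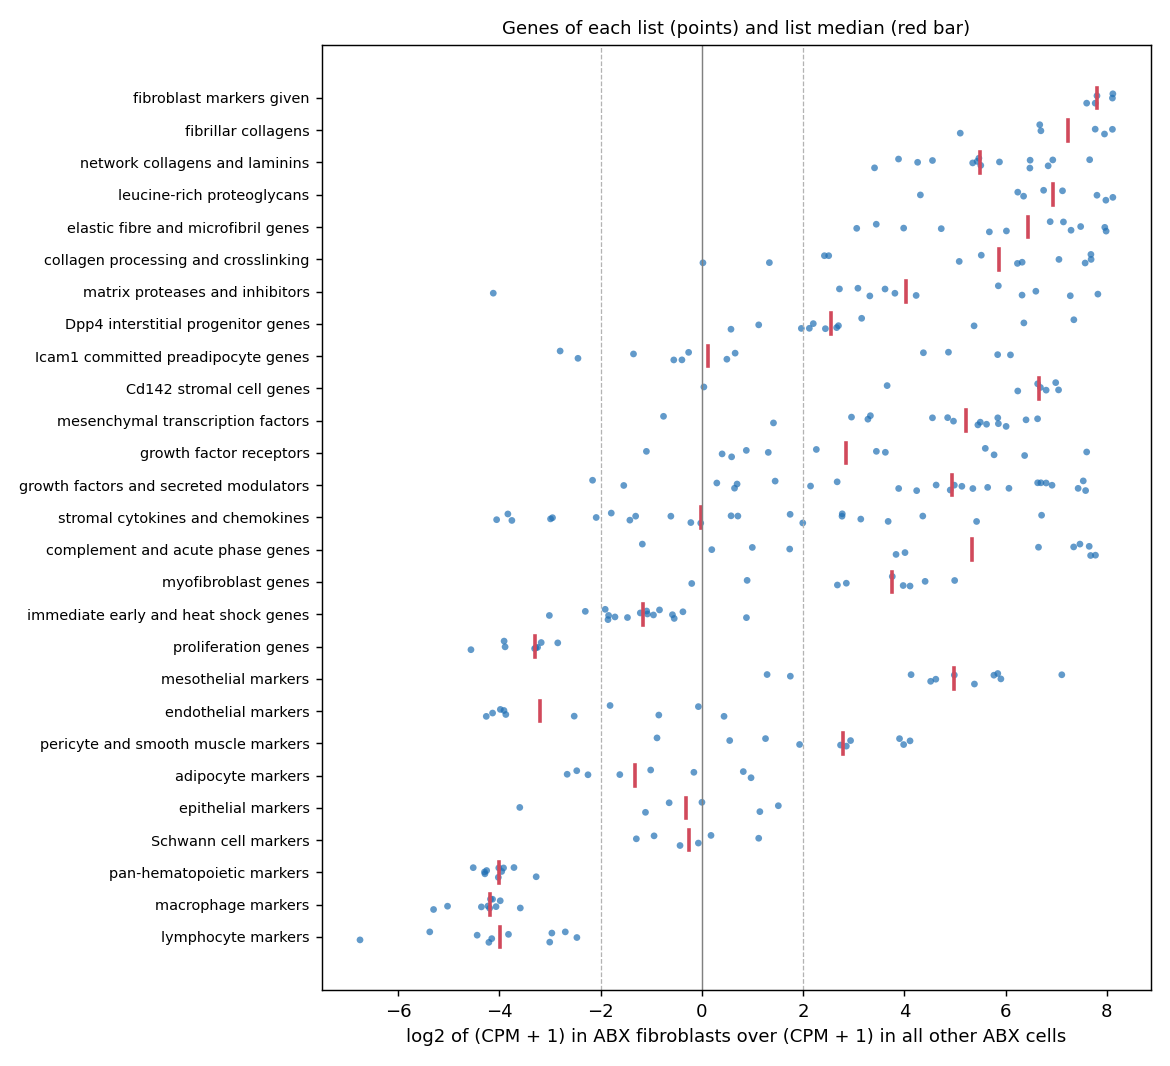
log2 of CPM + 1 in ABX fibroblasts over CPM + 1 in all other ABX cells (x axis) for each gene (points) of 27 lists (rows), with the list's median as a red bar. Dashed lines mark a 4-fold difference. All 6 fibrillar collagens, of which the rule used Col1a1 and Col3a1, lie above it, as do all 8 leucine-rich proteoglycans, and all 10 markers in each of the pan-hematopoietic, macrophage and lymphocyte lists lie to the left of the lower one.

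The transcription factors of mesenchyme were found at low counts but far above the other cells. Of 16 such genes, 13 were at least 4-fold higher (median log2 ratio 5.21), and 10 were so against endothelial cells. Osr1 had 168 UMIs in 60 cells (178-fold, 134 to 236) and Ebf2, a factor of adipogenic commitment, 87 UMIs in 36 cells (144-fold, 99.9 to 209). Prrx1 had 233 UMIs in 67 cells and was 116-fold higher. Cebpb was lower than in other cells (0.590-fold, 0.512 to 0.676). Ebf2 had no UMI in the 11 NW cells, of which 6 were mesothelial-like.

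Of 12 receptor genes, 7 were at least 4-fold higher than in other cells (median log2 ratio 2.85), among them Tgfbr3 (94.0-fold), Pdgfrb (89.6-fold), Osmr (66.9-fold), Il1r1 (13.9-fold) and Egfr (11.2-fold). Receptors that many cells use were close to the other cells, such as Tgfbr2 at 1.5-fold (1.34 to 1.69). Of 24 secreted growth factor and modulator genes, 17 were at least 4-fold higher (median log2 ratio 4.95) and 1 lower. Sfrp1, a Wnt antagonist, was 255-fold higher (213 to 306, in 68 cells), Gdf10 153-fold and Fgf10, which acts on adipose progenitors, 184-fold (109 to 318, in 24 cells). Igf1 was near the level of other cells (1.23-fold, 1.08 to 1.39). Tgfb1 was 0.206-fold (0.0829 to 0.426) with 7 UMIs. Grem1 had 0 UMIs.

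Complement genes were prominent. Of 12 complement and acute phase genes, 8 were at least 4-fold higher than in other cells (median log2 ratio 5.33) and 9 were so against endothelial cells. Serping1, the C1 inhibitor, had 1 to 143 UMIs (median 36) in all 87 ABX fibroblasts, at 4732 CPM against 22.6 in other cells (210-fold, 197 to 223). C1s1, the protease of the C1 complex, had 1 to 43 UMIs (median 14) in all 87 cells (252-fold, 225 to 283). C3, the central complement component, had 0 to 104 UMIs (median 23) in 77 cells (188-fold, 174 to 202). In contrast, C4b was close to other cells (1.14-fold, 1.01 to 1.29) and Saa3 had 1 UMI. In the 11 NW cells C3 had 484 UMIs in 10 cells, and Serping1 had 358 in 11.

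Of 23 cytokine and chemokine genes, 6 were at least 4-fold higher than in other ABX cells and 4 lower, with a median log2 ratio of -0.02. The 6 were Il33, Csf1, Tnfsf13b, Ccl11, Cxcl12 and Cxcl14. Ccl11, the chemokine eotaxin, had 0 to 26 UMIs (median 1) in 45 of 87 cells and was 141-fold higher (117 to 171). Csf1, the growth factor of macrophages, had 0 to 14 UMIs (median 2) in 71 cells and was 13.3-fold higher (11.6 to 15.1). Cxcl12, which retains leukocytes and progenitors, was 8.96-fold higher than in other cells but 0.299-fold (0.265 to 0.338) the level of endothelial cells. Il6, Ccl7, Cxcl5 and Cxcl9 had 0 UMIs, and Ccl2 had 3. Cxcl13, the B cell chemokine, lay mostly in 1 Pdgfra+ cell, with 39 of 42 UMIs.

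Il33 (ENSMUSG00000024810.16, chromosome 19, 29925114 to 29960718, plus strand) had a UMI in 29 of 87 ABX fibroblasts (33.3%, 23.6% to 44.3%), with 0 to 8 UMIs per cell and 73 in all. The share was 1.8% of endothelial cells (median depth 5016), 0.614% of macrophages (median depth 4656) and 0.179% of B cells, which should lack it (median depth 4967). With each cell thinned to 1000 UMIs the expected shares were 8.60%, 0.366%, 0.127% and 0.0246%. The 87 fibroblasts held 43.2% of all 169 Il33 UMIs of the ABX barcodes. Il33 was not limited to Pdgfra+ cells, as 22 of 73 of these had a UMI, 4 of 9 mesothelial-like cells and 3 of 5 smooth muscle-like cells. Its level was 79.4 CPM in the Pdgfra+ cells, 197 in the mesothelial-like and 215 in the smooth muscle-like cells. The thinned shares were 6.61%, 19.3% and 18.3% in that order, so the 2 small groups raise the values of all 87 cells. In NW, 5 of 6 mesothelial-like cells and the smooth muscle-like cell had Il33, with 14 UMIs together, and the 4 Pdgfra+ cells had 0 (a share of 0% with an exact upper limit of 60.2%).

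Genes of contractile matrix-forming cells were unevenly spread over the group. Of 9 myofibroblast genes, 5 were at least 4-fold higher than in other cells and 1 was so against endothelial cells. Of the 323 Acta2 UMIs, in 18 cells, 279 lay in the 5 smooth muscle-like cells and 9 in the 73 Pdgfra+ cells. Thbs1 (278 UMIs in 37 of 87 cells, 22.5-fold) and Postn (83 UMIs in 29 cells, 18.2-fold) were found in more cells. At least 1 UMI of the list lay in 52 of the 73 Pdgfra+ cells. Cthrc1 had 0 UMIs and Tnc had 1. Proliferation genes were at or near 0, with 2 UMIs of Mki67, 3 of Top2a and 9 over all 8 genes in the 87 cells, and none of the 8 genes had a UMI in the 11 NW cells. None of 16 immediate early and heat shock genes, which are known to respond to tissue digestion, was at least 4-fold higher and 2 were lower (Atf3 and Hspa1a). Their summed level had a median of 37.5 UMIs per 10000 in ABX fibroblasts (highest 475) and 123 in other ABX cells. The 5 smooth muscle-like cells had 92.3 to 475 (median 243), and the Pdgfra+ cells 9.53 to 247 (median 36.5). Egr1 was the only one of the 16 above other cells, at 1.84-fold (lower limit 1.69). In the 11 NW cells the median was 38.5 UMIs per 10000.

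Markers of endothelial cells and of hematopoietic lineages were low. None of 10 endothelial markers was at least 4-fold higher than in other cells, all 10 were at least 4-fold lower than in endothelial cells, and Cdh5, which the rule set to 0, Egfl7, Cldn5 and Emcn had 0 UMIs. All 10 pan-hematopoietic, 10 macrophage and 10 lymphocyte markers were at least 4-fold lower than in other cells. Macrophage markers summed to 0.854 to 28.9 UMIs per 10000 in ABX fibroblasts (median 5.15), where the C1q genes among them were limited by the rule, and to a median of 26.2 in other ABX cells. Of 8 adipocyte markers, 0 were at least 4-fold higher and 2 lower (Cfd and Car3), with 0 UMIs of Lep and 1 of Adipoq. Their median log2 ratio was -1.32, but Plin1 (3 UMIs) and Plin4 (5 UMIs) were 2.58-fold and 1.99-fold the level of other cells. None of 6 epithelial markers was at least 4-fold higher than in other cells, with Epcam, Cdh1 and Krt5 at 0. Their median log2 ratio was -0.32, and Krt7 (7 UMIs) was 3.56-fold the level of other cells. Epcam, at 11.1 CPM in other cells, was too rare to be called lower. Over all genes listed, 4.04% were called higher and 3.07% lower, so 0 calls among 6 or 8 genes say little. The 11 mesothelial and 10 pericyte and smooth muscle markers had 9 and 6 genes at least 4-fold higher. Most of these genes lay mainly in the small groups of cells described above, but Wt1, a transcription factor of mesothelium and visceral mesenchyme, had 75 of its 100 UMIs in 36 Pdgfra+ cells, and Nkain4 had 32 of its 57 UMIs in 12 of them.

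The 3 groups of cells differed widely from each other in other genes as well. The genes named here were chosen after their values were seen. Mesothelial-like cells were also shallower than Pdgfra+ fibroblasts in ABX (median 5823 against 9550 UMIs). Gsn, the actin-severing protein gelsolin, had 9 to 398 UMIs (median 122) in the 73 ABX Pdgfra+ fibroblasts. It had 0 to 2 in the 9 mesothelial-like cells and 2 to 15 in the 5 smooth muscle-like cells. Inmt (1879 UMIs in 63 of 73 cells) and Dpt, the matrix protein dermatopontin (1097 UMIs in 67 cells), had 0 UMIs in the other 14 cells. Lpl, lipoprotein lipase, had 2228 UMIs in the Pdgfra+ cells and 6 in the other 14. Ly6a, the Sca-1 antigen, had 1046 and 3.

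Mesothelial-like cells had their own secreted genes. Slpi, a secreted protease inhibitor, had 507 UMIs in 8 of 9 ABX mesothelial-like cells and 3 in the other 78 fibroblasts. Clu, the chaperone clusterin, had 126 UMIs in all 9 and 5 in the others. Upk1b (58 UMIs against 1) and Gpm6a (92 against 0) were found in all 9. C3 was high in them, with 19 to 104 UMIs (median 41) per cell, and Fmod, the proteoglycan fibromodulin, had 2 to 51 (median 9). Mmp2 and Ccl11 had 0 UMIs in these cells. The 6 NW mesothelial-like cells had 235 UMIs of Slpi in 5 cells, 92 of Clu in all 6 and 18 to 96 UMIs of C3 (median 48.5).

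In the smooth muscle-like cells, Inhba, an activin subunit, had 62 UMIs in 4 of 5 ABX cells and 2 in the other 82. Hhip and Ptch1, which are targets of hedgehog signalling, had 46 and 35 UMIs there, and 4 and 11 in the other 82. The single NW smooth muscle-like cell had 34 UMIs of Inhba, 9 of Hhip and 21 of Ptch1. Pdgfra was present in 4 of the 5 ABX cells (0 to 11 UMIs, median 3) and in the NW cell (13 UMIs). The 1 ABX cell without Pdgfra was the cell with Rgs5 and Notch3. It also had 0 Dcn UMIs, where the other 4 had 12 to 40, so the group was not uniform. Penk, the enkephalin precursor, had 65 UMIs in 4 of the 5 and 41 in the NW cell. C3 had 0 UMIs in all 5.

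**Figure D4:**
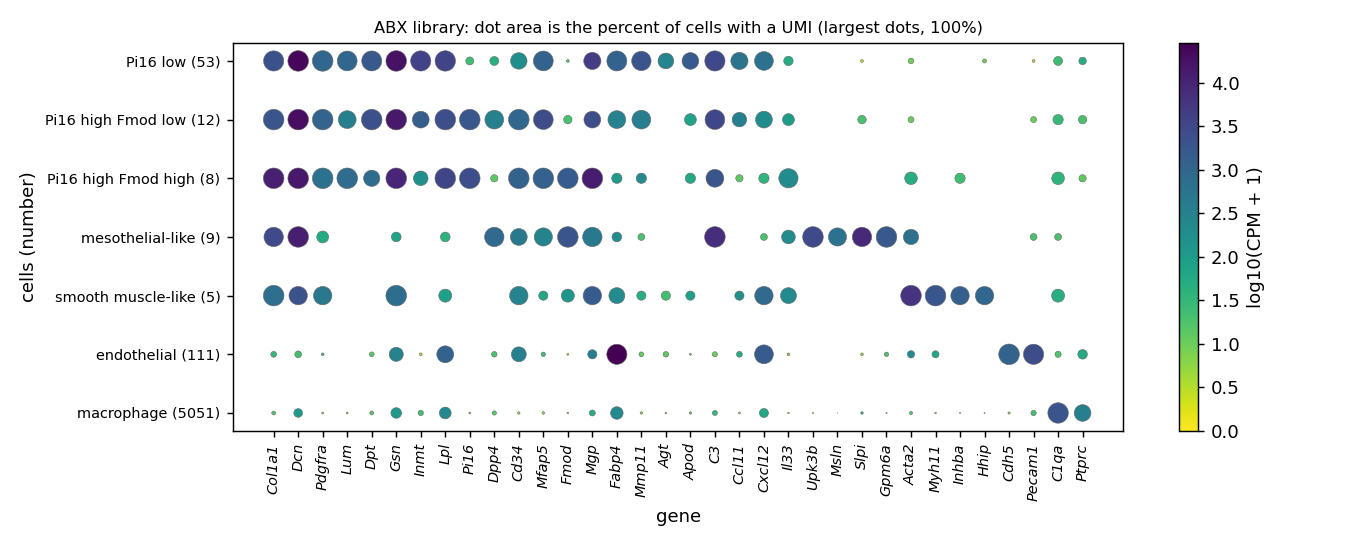
Genes (x axis) in groups of ABX cells (y axis, number of cells in brackets). Dot area gives the percent of cells with a UMI and colour gives log10 of CPM + 1. The upper 3 rows divide the 73 Pdgfra+ fibroblasts by Pi16 and Fmod. Upk3b, Msln, Slpi and Gpm6a are filled in the mesothelial-like row, Myh11, Inhba and Hhip in the smooth muscle-like row, and Lpl, Gsn and Dcn in all 3 Pdgfra+ rows.

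The 73 ABX Pdgfra+ fibroblasts varied along the genes that separate progenitors from preadipocytes. Over Dpp4, Pi16, Cd55, Anxa3, Sema3c, Wnt2 and Dact2, 45 of the 87 ABX fibroblasts had at least 3 UMIs (51.7%, 40.8% to 62.6%). The share was 43.2% of ABX endothelial cells (33.9% to 53.0%, median depth 5016), 10.7% of other ABX cells and 22.2% of B cells. Thinned to 1000 UMIs, the expected shares were 17.0% of fibroblasts, 1.89% of endothelial cells, 0.471% of other cells and 1.66% of B cells. Among the Pdgfra+ cells it was 34 of 73. Mesothelial-like cells also reached it, in 8 of 9 cells, where Dpp4 had 48 UMIs and Sema3c 44, so the sum was not limited to Pdgfra+ cells. Of the 12 genes listed for Dpp4 progenitors, 8 were at least 4-fold higher in ABX fibroblasts than in other ABX cells, from Pi16 at 233-fold (191 to 284) to Creb5 at 4.57-fold, with a median log2 ratio of 2.55. Dpp4 itself was not among them, at 1.49-fold (1.22 to 1.81). Against endothelial cells, 4 of the 12 genes were at least 4-fold higher and 2 lower, the latter Ly6c1 (0.146-fold) and Efhd1 (0.207-fold).

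Every ABX Pdgfra+ cell had UMIs of the preadipocyte sum, but most of these UMIs were Lpl (2228 UMIs, in 98.6% of the cells). Other genes of the sum, such as Agt and Fabp4, were spread unevenly, as given below. Over Icam1, Fabp4, Lpl, Pparg, Cd36, Ggt5 and Agt, each of the 73 had at least 3 UMIs (5 to 222, median 34), and 82 of all 87 did (94.3%, 87.1% to 98.1%). Macrophages (94.4%) and endothelial cells (97.3%) reached the same limit, and Fabp4 stood at 28255 CPM in endothelial cells against 779 in fibroblasts. After thinning the shares were 57.9% in fibroblasts, 65.1% in macrophages and 94.4% in endothelial cells. Of the 12 genes listed for committed preadipocytes, 4 were at least 4-fold higher than in other cells and 2 lower, with a median log2 ratio of 0.11. The higher ones were Lpl (20.9-fold), Ggt5 (31.2-fold), Agt (87.8-fold) and Sparcl1 (71.9-fold), and the lower ones were Cd36 and Apoe. Pparg, the adipogenic transcription factor, had 16 UMIs in 12 of 87 cells (21.1 CPM) and no UMI in the 11 NW cells. At so low a level few UMIs would lie in the NW cells, of which 6 were mesothelial-like, so the libraries cannot be compared for it. Of 8 genes listed for Cd142+ stromal cells, 6 were at least 4-fold higher than in other cells (median log2 ratio 6.66). Among them, F3, which encodes Cd142, had a UMI in 52 of 87 cells (203-fold, 161 to 259) and Mgp in 65 (136-fold). Against endothelial cells, 4 of the 8 were at least 4-fold higher and 1 lower (Meox2, 0.0171-fold).

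Pi16 (ENSMUSG00000024011.17, chromosome 17, 29317680 to 29330593, plus strand), a peptidase inhibitor, split the Pdgfra+ cells. It had 0 UMIs in 45 of the 73, 1 or 2 in 8 and at least 3 in 20, where it had 3 to 68 (median 13.5). The 20 Pi16-high and 53 Pi16-low cells had median depths of 10373 and 9180 UMIs. The split and the genes named for it were chosen after their values had been seen, so the folds that follow are descriptions.

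Surface genes of progenitors went with Pi16. Cd34, an antigen of adipose progenitors, had 1 to 25 UMIs (median 8.5) in all 20 Pi16-high cells and 0 to 11 (median 1) in the Pi16-low cells, 5.80-fold higher per UMI (4.49 to 7.56). Dpp4 was 4.60-fold higher (2.58 to 8.46), Cd55 4.99-fold (3.29 to 7.69), Anxa3 7.23-fold (4.80 to 11.1) and Sema3c 8.49-fold (4.13 to 19.2). Col14a1, a collagen that associates with fibrils, had 3 to 35 UMIs (median 13) in all 20 Pi16-high cells and was 4.27-fold higher (3.54 to 5.17). Other genes with a higher ratio lay in part of the Pi16-high cells, since 8 of them held 128 of the 130 Fmod UMIs (51.1-fold), 189 of the 196 UMIs of the BMP antagonist Chrdl1 (51.4-fold) and 233 of the 268 Mfap4 UMIs (19.2-fold). In the other 12, Fmod stood at 18.5 CPM and Mfap4 at 323, against 13.0 and 71.8 in Pi16-low cells. Of the 98 Sfrp2 UMIs in Pi16-high cells, 76 came from 1 cell. Il33 was 2.98-fold higher (1.66 to 5.38). Icam1 was 2.64-fold higher in Pi16-high cells (1.49 to 4.73), the opposite side from Fabp4, Cd36, Plin2, Ggt5 and Agt of its list.

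Lipid handling genes were on the other side. Fabp4, a fatty acid carrier, had 0 to 49 UMIs (median 7) in 50 of 53 Pi16-low cells and 0 to 8 (median 1) in 11 of 20 Pi16-high cells, 5.18-fold higher in Pi16-low cells (3.80 to 7.25). Cd36 was 7.11-fold higher there (4.07 to 13.6), Plin2 4.45-fold (2.92 to 7.08) and Ggt5 3.62-fold (2.55 to 5.30). Agt, angiotensinogen, had 122 UMIs in 31 of 53 Pi16-low cells and 0 in the Pi16-high cells. With the latter set to 3 UMIs this is 17.2-fold higher, and the exact lower limit was 13.8-fold. Lpl differed little, at 1.28-fold (1.17 to 1.42), and was found in all 20 Pi16-high cells. Secreted factors of Pi16-low cells were Apod (23.5-fold, 13.7 to 44.4), Igf1 (8.51-fold, 4.67 to 17.3), Mmp11 (6.19-fold, 4.77 to 8.19), Plau (4.86-fold), Cxcl12 (4.76-fold, 3.16 to 7.49), Col4a1 (3.77-fold) and Ccl11 (3.05-fold, 2.15 to 4.45). Pdgfra and Dpt were at like levels, with ratios of Pi16-high to Pi16-low of 0.897 (0.749 to 1.07) and 0.938 (0.820 to 1.07).

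Across the 73 cells, which come from 1 library and differ in depth, the rank correlation of Pi16 with Cd34 in UMIs per 10000 was 0.667, with Fmod 0.603, with Dpp4 0.447, with Lpl -0.268, with Mmp11 -0.561 and with Fabp4 -0.610. No p-value is given, since cells of 1 library are not replicates.

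The Pi16-high cells were themselves of more than 1 kind. In 8 of the 20, Fmod had at least 2 UMIs (2 to 33, median 16). These cells had 47 to 275 Col1a1 UMIs (median 121.5), where the other 12 had 4 to 44 (median 13.5). Per 10000 UMIs the ranges overlapped, at 44.7 to 237 and 4.80 to 47.9 (medians 110 and 15.0). Mgp, an inhibitor of calcification, had 26 to 256 UMIs (median 116) in the 8 and 0 to 116 (median 1.5) in the 12. Dpp4 went the other way, with 1 UMI in all 8 cells and 36 in 10 of the 12. Il33 was found in 7 of the 8 cells (18 UMIs) and in 4 of the 12 (11 UMIs), and Ccl11 in 1 of the 8 and 6 of the 12. Nkain4, which mesothelial cells also carry, had a UMI in 7 of the 8 and 2 of the 12. Pi16 itself did not separate them, with 6 to 51 UMIs in the 8 and 3 to 68 in the 12.

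**Figure D5:**
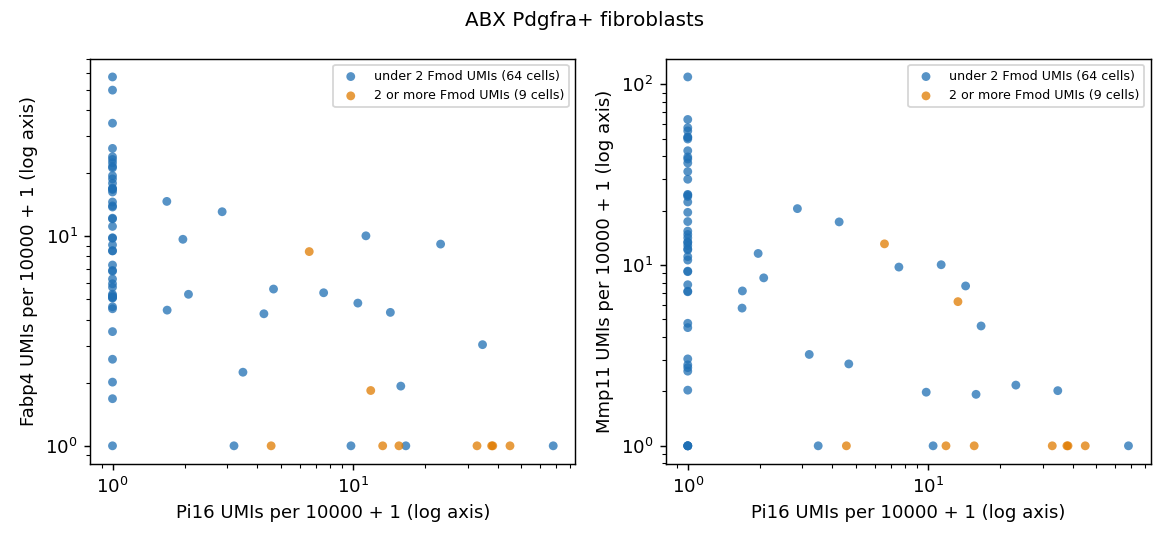
Pi16 UMIs per 10000 (x axis, 1 added, log scale) against Fabp4 (left) and Mmp11 (right) UMIs per 10000 (y axes, 1 added, log scale) in the 73 ABX Pdgfra+ fibroblasts, 1 point per cell, with the 9 cells that have at least 2 Fmod UMIs in orange. Fabp4 and Mmp11 are lower where Pi16 is higher (rank correlations -0.610 and -0.561), and most of the orange cells lie at 0 UMIs in each panel.

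The 4 NW Pdgfra+ fibroblasts are described as single cells. Pi16 had 5, 0, 0 and 15 UMIs in them, in the order of the Pdgfra values given above. Lpl had 5, 41, 2 and 27 UMIs, and C3 had 50, 86, 34 and 2. Mmp11 had 13, 9, 0 and 0, so its highest value was in a cell with Pi16. The second cell, without Pi16, was the only one with Fabp4 (5 UMIs), and it also had 11 UMIs of Ccl11 and 39 of Inmt. The third cell had 18 Fmod UMIs, 180 of Col1a1, no Ccl11 and no Pi16. The fourth, with the most Pi16, also had the most F3 (35 UMIs) and Clec3b (41 UMIs). With 4 cells, no level in NW Pdgfra+ fibroblasts was compared with that in ABX.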

How the data were processed

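The authors processed the reads with the BD Rhapsody WTA pipeline (version 1.8 per the file headers, GRCm38) and deposited UMI counts per cell barcode and gene or antibody, without normalization. The submitters' processing notes also name R 3.6.0 and Seurat 3.0.1. The files hold 10 antibodies, and the study's methods list 8 of them, without CD3 and NK-1.1.

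Summed counts per group of cells were divided by the group's total gene UMIs (CPM) in Python 3.11.15 with numpy 2.4.6 and scipy 1.17.1. Folds of CPM carry exact conditional Poisson intervals, and shares carry exact Clopper-Pearson intervals, both at 95%. A group at 0 was set to 3 UMIs to give a fold, which is not a 95% limit. Shares thinned to 1000 UMIs are hypergeometric expectations. No doublet caller was run. The call of 4-fold genes was tested on simulated Poisson counts, with changes larger than 4-fold and no spread between cells. That test cannot show how the call behaves near its limits or for genes held by single cells. Ccn2 and Ccn5 were read as Ctgf and Wisp2, and Cfb was not used here.

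The cells, the 27 gene lists and the comparisons were chosen with earlier results of these data known. Named genes were those of the lists, the 30 with the largest fold over other ABX cells and the 10 with the largest over endothelial cells, among genes with 200 or more UMIs in the fibroblasts that were seen in 30% or more of them. Genes named for the groups within the fibroblasts, and the groups' limits, were chosen after their values were seen. Gene coordinates are from GENCODE M21. With 1 library per condition there were no replicates, so no differential test was run. Alternatives varied the limits on matrix UMIs, mitochondrial share and depth, left out cells with hematopoietic or mesothelial genes, and changed the summary of levels.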

Additional observations from a re-analysis of the deposited data

How the results depend on the processing

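Of 94 values recomputed under 13 alternatives, 82 stayed within the counting interval of the value reported (within 1.5 times it for counts of genes and within the interval of the median for antibodies), 12 lay outside it and 0 reversed. Leaving out cells with 3 or more mesothelial UMIs gave a share of 0.0401% in NW and 98.6% of ABX fibroblasts with preadipocyte UMIs. Leaving out the mesothelial-like and smooth muscle-like cells, an alternative chosen after seeing the data, gave 0.0321% in NW, a log10 ratio of 1.25 and 100% with preadipocyte UMIs. The other alternative chosen after seeing the data left out cells with a barcode of both libraries, and its values stayed within those limits. Over all barcodes the ABX share was 0.489%. Without a minimum of UMIs, 2752 genes were at least 4-fold higher than in other cells and 1274 than in endothelial cells. Thinning to 1000 UMIs per cell gave 2.32% with Ptprc, 17.0% with progenitor UMIs, 57.9% with preadipocyte UMIs and 8.60% with Il33, so shares of cells with a UMI depend on depth. The 11 NW cells, 4 of them Pdgfra+, limit every NW value, and with 1 library per condition no value has a replicate. No paired analysis was possible because there is 1 library per condition and no test between them.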
